A study of Homo sapiens with 44 samples.

Results

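The comparison described here is the knockdown of IRF2BP2 in HEK293-GR cells under vehicle, that is without any hormone added. Its members are 6 RNA libraries of the 44 samples of the series, 3 transfected with a small interfering RNA (siRNA) pool against IRF2BP2 (siIRF2BP2) and 3 with a non-targeting pool (siNON), read over all 25690 genes of the HEK293-GR expression table. HEK293-GR is a line of HEK293 cells, of human embryonic kidney origin, that carries an integrated copy of the glucocorticoid receptor and makes it constantly. Both groups grew in medium with serum stripped of steroids, received 20 nM siRNA for 72 h, and were given ethanol for the last 6 h. The labels number 4 replicates per group and the table has columns for replicates 1 to 3, so replicate 4 was not analysed here. The series also holds the same knockdown with 100 nM dexamethasone (dex), a synthetic glucocorticoid, the knockdown in A549 lung adenocarcinoma cells, and chromatin immunoprecipitation (ChIP) of IRF2BP2. Only 1 pool of siRNAs against IRF2BP2 was used and no library without siRNA is among the groups, so effects of the lowered IRF2BP2 and of the pool on other transcripts cannot be told apart.

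IRF2BP2 (interferon regulatory factor 2 binding protein 2) has no known DNA-binding specificity of its own. It carries a zinc finger and a RING domain, was first described as a corepressor that binds IRF2, and is recruited to chromatin by other transcription factors and cofactors, among them NFAT1 and VGLL4. An siRNA loads into the RNA-induced silencing complex, which cuts the matching messenger RNA, so the transcript falls first and the protein follows as it turns over. A gene that differs after 3 days can therefore lie far downstream of the protein that was lowered.

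The depth was 18.8 to 24.8 M tags per library, of which 57.0 to 60.1% lay on genes of the table. Levels are given in FPKM, in which the fragments of a gene are divided by its exon length in kilobases and by the tags of the library in units of 1e6. A change is the log2 fold change of siIRF2BP2 over siNON on log2(FPKM + 0.1) with its standard error (SE), from limma, with p-values adjusted by Benjamini-Hochberg over 15203 tested genes and a threshold of 0.05. The pseudocount understates the change of genes under about 1 FPKM. The replicates are biological per the series' design text, but the labels do not name separate cultures, so the p-values measure the spread between these libraries. HEK293 markers summed to 284 to 308 FPKM in siNON and 261 to 291 FPKM in siIRF2BP2 libraries, with all 15 markers detected in both groups. The 13 markers of A549, the other line of the series, summed to 5.21 to 5.69 and 6.18 to 6.71 FPKM, and FGA and SFTA3 had no read in either group, nor KRT7 in siNON. Markers of blood summed to 3.97 to 6.22 FPKM with siNON and 2.45 to 4.36 with siIRF2BP2, those of endothelium to at most 0.364 and those of fibroblasts to at most 2.98 in any library. HBB and COL1A2 had no read in siNON and TEK none in siIRF2BP2 libraries. The A549 marker sums did not overlap between the groups. No tested marker of the 5 lists passed the test, where 5.14% of all genes did. Tested were 15 markers of HEK293, 3 of A549, 3 of blood, 1 of endothelium and 2 of fibroblasts, so the lack of calls says little. The part of the small shifts in other results was not tested. In bulk RNA, fewer cells with a transcript and less of it per cell cannot be told apart.

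The libraries within a group did not lie equally close. In the median gene, siNON replicate 3 lay 0.186 (log2) from the other siNON libraries, against 0.126 and 0.146 for replicates 2 and 1. siIRF2BP2 replicate 1 lay closest to its group, at 0.0920, and replicates 3 and 2 lay at 0.138 and 0.144. siNON replicate 3 and siIRF2BP2 replicate 2 deviated from their groups in the same genes (correlation of deviations 0.60 across 15203 genes, which are not independent replicates). Their signed differences from the rest of their groups rose weakly with exon length (correlation across genes 0.15 and 0.21). Longer genes thus tended to read higher in these 2 libraries than in the rest of their groups. In the other 4 libraries the correlation was -0.16 to -0.08. Calls with libraries left out are given below.

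IRF2BP2 itself stood at 23.4, 25.0 and 20.3 FPKM in the siNON libraries and at 12.6, 11.8 and 13.7 FPKM in the siIRF2BP2 libraries. The groups did not overlap, and 0.555 of the mean level was left. The log2 fold change was -0.84 ± 0.10 (limma, n = 3 per group, adjusted p = 0.000999), and it kept its call in all 15 alternatives tried, with values from -0.93 to -0.77. None of the other 9 tested members of the IRF2BP2 family and its partners passed the test. Its paralogue IRF2BP1 gave -0.36 ± 0.14 (limma adjusted p = 0.145), with 20.9, 21.1 and 16.4 FPKM in siNON and 18.7, 12.7 and 14.6 FPKM in siIRF2BP2 libraries, which overlap. IRF2BPL, the third member of the family, gave -0.01 ± 0.15. IRF2, the partner after which the protein is named, gave 0.38 ± 0.12 (limma adjusted p = 0.0792), with 4.26 to 4.84 FPKM against 5.78 to 6.41 FPKM. NR3C1, the gene of the glucocorticoid receptor, stood at 34.2 to 39.8 FPKM with siNON and 34.8 to 39.2 FPKM with siIRF2BP2 (-0.01 ± 0.09), so the 2 ranges nearly coincide. VGLL4, a cofactor of the TEAD factors, gave 0.13 ± 0.09 and the calcium-responsive factor gene NFATC2 gave 0.42 ± 0.21 (limma adjusted p = 0.234).

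Across the table limma called 782 of 15203 genes, 5.14% of those tested, of which 314 were higher (2.07%) and 468 lower (3.08%) with siIRF2BP2. The median change over all genes was 0.02, and the size of the change reached 1 (log2) in 32 higher and 36 lower genes. In 4103 genes (27.0%) the libraries of the 2 groups did not overlap, and 778 of the 782 called genes were among them. The lower genes had a median exon length of 2487 bases and 97.9% were protein-coding. The higher genes had a median of 3006 bases and 85.0% were protein-coding, against 2994 bases and 90.7% of all tested genes. Whether transcript length takes part in the calls was not tested.

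**Figure D1:**
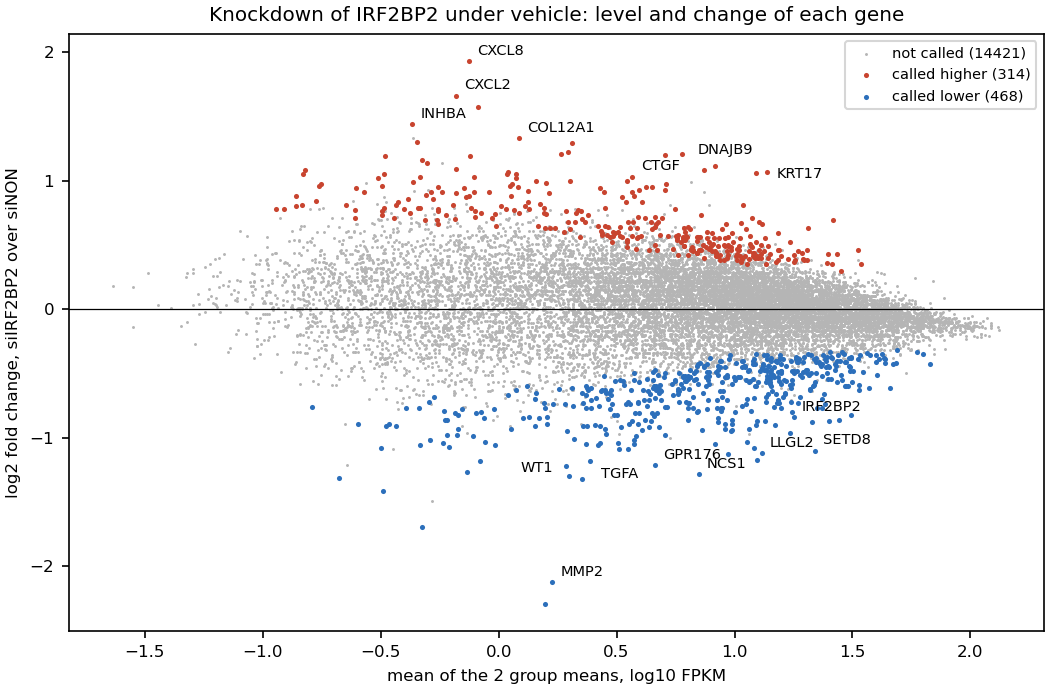
Each point is 1 of 15203 tested genes, with its mean level (log10 FPKM) on the x axis and its log2 fold change of siIRF2BP2 over siNON under vehicle on the y axis. Red points are the 314 genes called higher and blue points the 468 called lower. The smallest called change is 0.30 in size on the log2 scale.

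The number of calls rested on single libraries. Without siNON replicate 3 it rose to 3528, while it was 137 without siNON replicate 1, 187 without siNON replicate 2, 322 without siIRF2BP2 replicate 2 and 153 without siIRF2BP2 replicate 3. Without siIRF2BP2 replicate 1 it was 848. A set of 105 genes, 82 lower and 23 higher, passed the threshold with the same sign in the fit of 6 libraries and with each library left out. In the paragraphs below a call is said to be kept where it passed in all 6 of these fits, and otherwise the highest adjusted p that leaving out 1 library gave stands beside it. All alternatives gave each named gene the same sign.

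**Figure D2:**
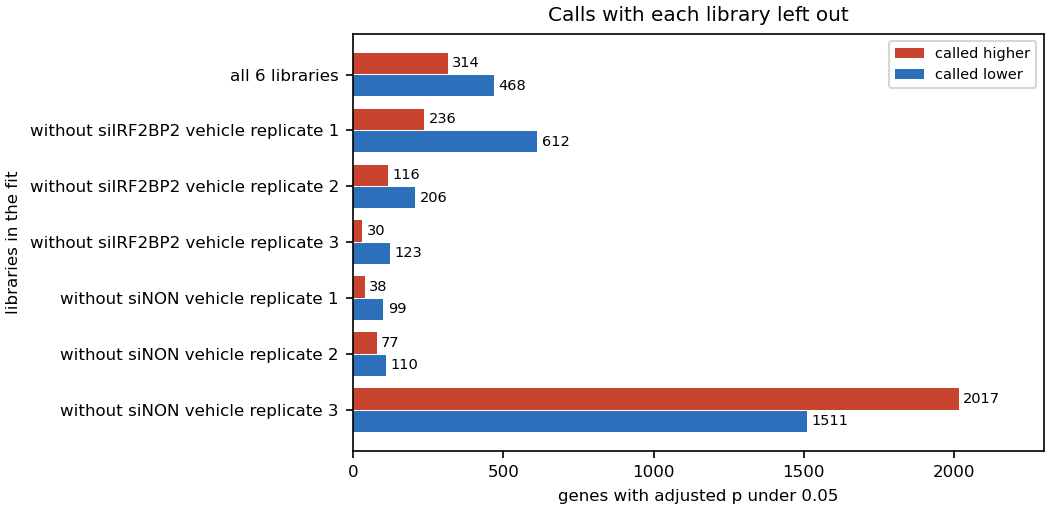
Bars give the number of genes with adjusted p under 0.05 (x axis), higher in red and lower in blue, in the fit of all 6 libraries and with each library left out (y axis). All 6 libraries gave 314 higher and 468 lower calls. Without siNON replicate 3 there were 2017 higher and 1511 lower calls. The other fits with a library left out lay between 30 and 236 higher and between 99 and 612 lower.

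MMP2, the gelatinase that cuts basement membrane collagen, fell furthest of the genes named by size. MMP2 went from 2.98, 3.12 and 2.29 FPKM to 0.494, 0.568 and 0.634 FPKM, so the highest siIRF2BP2 library was far under the lowest siNON library. The log2 fold change was -2.12 ± 0.18 (limma, n = 3 per group, adjusted p = 0.000191, kept), the means being 2.80 ± 0.444 and 0.565 ± 0.0700 FPKM (± SD). MMP2 lies on chr16:55513081-55540586 of build hg19, on the plus strand. NCS1, a neuronal calcium sensor of the EF-hand family, fell from 10.4, 10.3 and 9.32 FPKM to 4.34, 3.71 and 4.17 FPKM (-1.28 ± 0.12, limma adjusted p = 0.000191, kept). TGFA, which binds and activates the EGF receptor, fell from 3.30, 3.39 and 3.58 FPKM to 1.27, 1.64 and 1.48 FPKM (-1.18 ± 0.15, limma adjusted p = 0.00136, kept). For both genes the spread within a group was a small part of the step between the groups. TGFA-IT1 overlaps TGFA on the same strand.

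WT1, a zinc-finger factor of kidney and gonad development, fell from 3.06, 2.53 and 2.64 FPKM to 1.11, 1.30 and 0.974 FPKM (-1.22 ± 0.16, limma adjusted p = 0.00190, kept). Its antisense gene overlaps it, and the sources used here do not say that strand was used in counting. Overlapping genes are not given here for every named gene. SETD8, which places the single methyl group on histone H4 lysine 20, fell from 30.5, 30.7 and 28.3 FPKM to 12.5, 13.2 and 16.1 FPKM (-1.10 ± 0.10, limma adjusted p = 0.000191, kept). LLGL2, a gene of apical and basal polarity, fell from 19.0, 18.1 and 16.6 FPKM to 8.91, 7.89 and 7.73 FPKM (-1.12 ± 0.10, limma adjusted p = 0.000191, kept). Each of these genes was lower in all 3 siIRF2BP2 libraries than in any siNON library, which the rule that chose them required.

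STMN3, a stathmin that binds tubulin, fell by 1.13 ± 0.12 on the log2 scale, at 12.8, 14 and 11.9 FPKM against 6.68, 5.38 and 5.50 FPKM. TMEM163, a zinc transporter, fell by 1.32 ± 0.19 (from 2.51 to 3.86 down to 0.980 to 1.39 FPKM). GPR176, an orphan receptor, fell by 1.21 ± 0.14 (from 6.14 to 6.61 down to 2.34 to 3.29 FPKM). GFY and C17orf58 fell by 1.30 ± 0.19 and 1.17 ± 0.10. FAM19A5, a secreted protein of the brain, changed by -1.18 ± 0.21 (limma adjusted p = 0.0104, at most 0.0742 with 1 library left out). The other 5 genes of this paragraph kept their calls.

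COL12A1, a collagen that decorates fibrils, had the largest rise of the genes chosen by size. COL12A1 stood at 0.666, 0.698 and 0.577 FPKM with siNON and at 1.78, 1.62 and 1.95 FPKM with siIRF2BP2 (1.33 ± 0.17, limma adjusted p = 0.00118, kept). KRT17, a keratin of stressed and basal epithelium, rose from 9.10, 9.77 and 7.57 FPKM to 18.7, 18.1 and 18.8 FPKM (1.07 ± 0.11, limma adjusted p = 0.000277, kept). Its reads may be shared in part with keratin pseudogenes. INHBE, a subunit of the activin family, rose from 7.70, 10.3 and 6.19 FPKM to 16.8, 15.4 and 17.6 FPKM (1.06 ± 0.15, limma adjusted p = 0.00199, kept). The siIRF2BP2 libraries of KRT17 were nearly equal, while the siNON libraries of INHBE spread more widely.

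ZBED6, a transposon-derived repressor of IGF2, changed by 1.20 ± 0.20 (limma adjusted p = 0.00768; 0.0568 without siNON replicate 1), but lies within ZC3H11A on the same strand, and their reads cannot be told apart with certainty. Among the rest, KCND1, a voltage-gated potassium channel, rose by 1.02 ± 0.18 and PAQR6, a membrane progestin receptor, by 1.00 ± 0.16, both kept. PAQR6 overlaps BGLAP on the opposite strand. CPEB2, which regulates translation, changed by 1.05 ± 0.18 (limma adjusted p = 0.00881; at most 0.0648 with a library left out). MAP2, a microtubule protein of dendrites, changed by 1.03 ± 0.20 (limma adjusted p = 0.0136; at most 0.0808). KLHL28 and RASSF9 had the largest SEs of the 12 rises (0.25 and 0.22), with siNON replicate 3 nearest to the siIRF2BP2 range in both, and passed at 0.0421 and 0.0255 (limma) but reached 0.182 and 0.136 without siNON replicate 1.

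**Figure D3:**
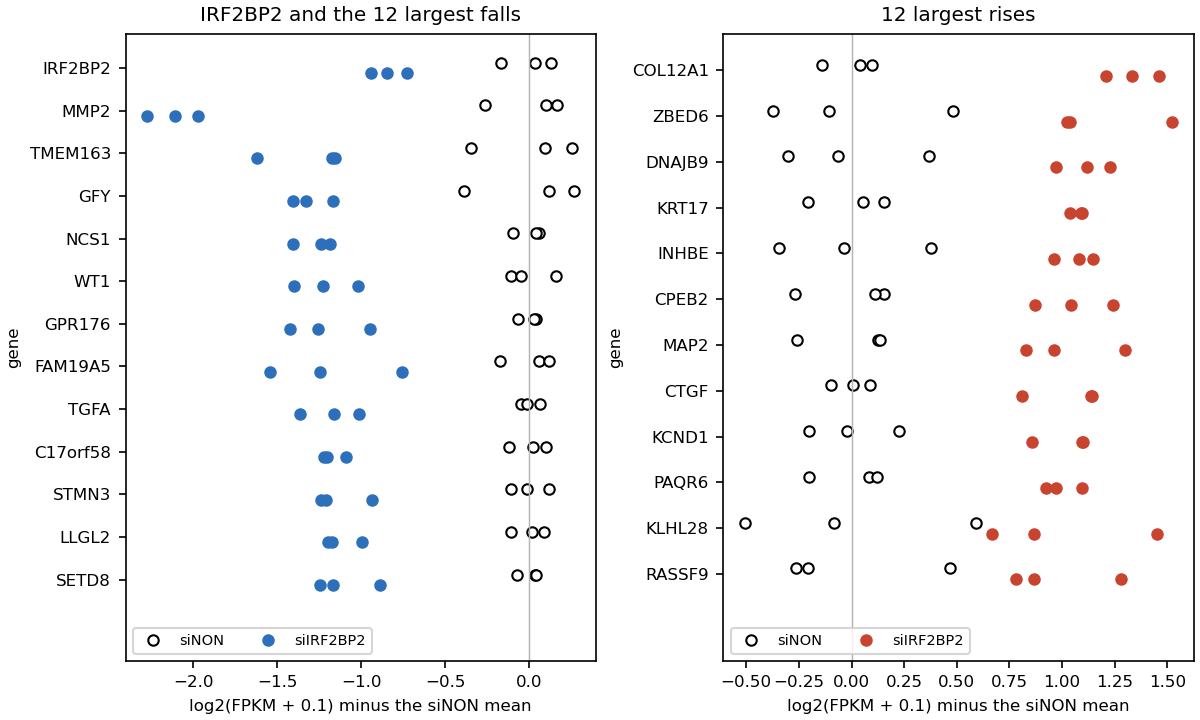
Every library of IRF2BP2 and the 12 largest falls (left) and the 12 largest rises (right) is a point, placed by log2(FPKM + 0.1) minus the siNON mean of the gene (x axis, genes on the y axis). Open points are siNON and filled points siIRF2BP2 libraries. The rises and falls were chosen among genes whose groups do not overlap, so the gap between their groups is not a result. Of the genes shown, MMP2, with a log2 fold change of -2.12, lies farthest from its siNON libraries.

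Target genes of YAP and TEAD were the list with the most rises. YAP is the cofactor that the Hippo kinases keep out of the nucleus, and TEAD factors carry it to DNA. Of 23 tested target genes 8 rose and none fell, against 2.07% and 3.08% of all genes, and the list median was 0.27 beside 0.02 over all genes. The 8 include IGFBP3, which entered the test through the siIRF2BP2 libraries, where it is higher, and CTGF alone of the 8 kept its call. In 17 of the 23 genes all siIRF2BP2 libraries lay above all siNON libraries and in 1 all lay below, against 27.0% of all genes in either direction. The count of rises was 1 without siIRF2BP2 replicate 3, 3 without siNON replicate 1 or 2, and 10 without siNON replicate 3, and the list median stayed between 0.23 and 0.30 in these fits. Among 25 tested genes of the Hippo machinery none rose and 1 fell, with a median of 0.12. The one that fell was NF2, an upstream activator of the kinases, at 12.8, 13.5 and 10.6 FPKM against 8.78, 7.55 and 9.10 FPKM (-0.53 ± 0.12, limma adjusted p = 0.0256; 0.130 without siNON replicate 2).

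CTGF, a matricellular protein, rose from 2.54, 2.39 and 2.22 FPKM to 5.37, 4.25 and 5.35 FPKM (1.03 ± 0.14, limma adjusted p = 0.00199, kept). ANKRD1, a muscle ankyrin repeat protein, stood at 0.932, 0.570 and 0.719 FPKM and at 1.48, 1.76 and 1.35 FPKM (0.97 ± 0.20, limma adjusted p = 0.0171; 0.0740 without siIRF2BP2 replicate 3). AMOTL2, an angiomotin that holds YAP in the cytoplasm, stood at 2.83, 2.51 and 2.06 FPKM and at 4.34, 4.04 and 4.94 FPKM (0.83 ± 0.15, limma adjusted p = 0.0121; 0.0901 without siIRF2BP2 replicate 3). The groups were apart in each of these 3 genes, which for CTGF was required by the rule that chose it by size. CCDC80, a matrix protein, changed by 0.68 ± 0.13, CYR61, the close relative of CTGF, by 0.59 ± 0.13, and LATS2, a kinase of the Hippo pathway, by 0.60 ± 0.14. Leaving out 1 library raised the limma adjusted p of these to at most 0.0940, 0.138 and 0.115. IGFBP3, which binds insulin-like growth factors, passed at a level of only 0.0680 to 0.253 FPKM (limma adjusted p = 0.0288; 0.124 without siNON replicate 1). IGFBP3 had under 10 reads in each siNON library and entered the test through the siIRF2BP2 libraries, where it is higher. GADD45A gave 0.46 ± 0.11 from the higher level of 17.2 ± 2.09 FPKM (limma adjusted p = 0.0302; 0.103 without siIRF2BP2 replicate 3).

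The promoters below are shown because AMOTL2 and ATF3 were the called genes chosen by rule whose start lay under an IRF2BP2 ChIP peak of vehicle-treated cells, and because CTGF and ANKRD1 moved with AMOTL2 (these were added after their values were seen). Each is the 250 bases before a start, 5′ to 3′, from RefSeq (GRCh38.p14). Capitals mark GGAATG or its reverse complement CATTCC, the core that TEAD factors recognise.
AMOTL2, upstream start (chr3:134375418-134375667, minus strand): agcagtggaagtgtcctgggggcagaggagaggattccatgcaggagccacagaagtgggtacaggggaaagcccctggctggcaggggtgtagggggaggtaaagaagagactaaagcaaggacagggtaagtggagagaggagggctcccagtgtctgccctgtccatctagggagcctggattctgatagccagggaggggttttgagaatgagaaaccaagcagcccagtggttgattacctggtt
AMOTL2, downstream start (chr3:134374448-134374697, minus strand): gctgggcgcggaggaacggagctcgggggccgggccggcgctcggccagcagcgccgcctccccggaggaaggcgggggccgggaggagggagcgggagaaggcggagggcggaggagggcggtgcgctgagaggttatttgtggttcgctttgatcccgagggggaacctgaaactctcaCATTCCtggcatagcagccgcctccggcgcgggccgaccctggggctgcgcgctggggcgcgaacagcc
ATF3, upstream start (chr1:212565157-212565406, plus strand): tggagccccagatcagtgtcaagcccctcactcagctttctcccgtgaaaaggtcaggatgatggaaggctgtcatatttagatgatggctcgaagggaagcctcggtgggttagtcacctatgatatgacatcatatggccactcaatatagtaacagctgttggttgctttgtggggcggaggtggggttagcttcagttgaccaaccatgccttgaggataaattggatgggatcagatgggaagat
ATF3, downstream start (chr1:212614768-212615017, plus strand): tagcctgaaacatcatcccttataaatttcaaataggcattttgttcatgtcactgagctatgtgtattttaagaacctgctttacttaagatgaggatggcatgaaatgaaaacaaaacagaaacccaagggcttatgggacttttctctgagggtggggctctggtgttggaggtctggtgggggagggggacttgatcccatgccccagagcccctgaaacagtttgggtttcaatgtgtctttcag
CTGF (chr6:131951373-131951622, minus strand): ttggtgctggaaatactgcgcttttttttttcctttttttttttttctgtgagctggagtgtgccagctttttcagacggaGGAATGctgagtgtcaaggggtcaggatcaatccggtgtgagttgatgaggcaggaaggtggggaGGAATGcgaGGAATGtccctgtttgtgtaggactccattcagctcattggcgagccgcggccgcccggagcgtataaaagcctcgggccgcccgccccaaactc
ANKRD1 (chr10:90921088-90921337, minus strand): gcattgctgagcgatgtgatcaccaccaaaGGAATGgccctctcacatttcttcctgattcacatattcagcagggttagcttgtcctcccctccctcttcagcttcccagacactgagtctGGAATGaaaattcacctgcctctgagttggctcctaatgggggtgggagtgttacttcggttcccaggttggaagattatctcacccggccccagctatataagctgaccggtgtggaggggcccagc
The letters occurred 3 times before CTGF, 2 times before ANKRD1 and once before the downstream start of AMOTL2, and in 11.9% of 35116 promoter windows of this length in the table on either strand. CTGF is listed there as CCN2. Promoters were found for 6 of the 8 risen YAP and TEAD target genes, and counts are given only for AMOTL2, CTGF and ANKRD1. The counts come from chosen genes and do not describe the risen genes as a set beside the share of all windows. A match is a description of letters and not a bound site. In the files' build hg19 the peak at AMOTL2 was chr3:134093152-134093494 and had its edges at -67 and 275 bases from the start in the table. The peak at ATF3 was chr1:212781861-212782203 and had its edges at -109 and 233 bases from its start. Since the builds differ, the peaks were not placed on these sequences. It was not established that any printed window is the one before the start under the peak. The lack of the letters in the 2 ATF3 windows therefore says nothing on the ATF3 start under its peak.

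Of 12 tested genes of the EGF family TGFA alone passed, and the list median was 0.06. Of 44 genes of the TGF-beta, activin and BMP pathway 3 rose and 3 fell, against 2.07% and 3.08% of all genes, with a median of 0.10. INHBA, the subunit of activin A, stood at 0.185, 0.123 and 0.252 FPKM with siNON and at 0.800, 0.670 and 0.545 FPKM with siIRF2BP2 (1.44 ± 0.22, limma adjusted p = 0.00313, kept), from a mean of 8.7 and 34.3 reads. INHBA met the filter of 10 reads in 3 libraries through the siIRF2BP2 libraries, where it is higher. INHBA-AS1 overlaps INHBA on the opposite strand. INHBE, the other activin subunit, is given above. SKI, a repressor of SMAD signalling, fell from 32.2, 32.6 and 26.2 FPKM to 20.5, 15.5 and 18.5 FPKM (-0.74 ± 0.12, limma adjusted p = 0.00398, kept). ACVR2B, an activin receptor, changed by -0.64 ± 0.14 (limma adjusted p = 0.0217) and TGFB1 by -0.53 ± 0.12 (limma adjusted p = 0.0304), reaching 0.112 and 0.164 with 1 library left out.

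Of 42 tested Wnt pathway genes 5 fell and none rose, against 3.08% and 2.07% of all genes, with a median of -0.15. SFRP1, a secreted Wnt antagonist, fell from 13.0, 13.9 and 11.5 FPKM to 6.49, 5.96 and 7.31 FPKM (-0.95 ± 0.11, limma adjusted p = 0.000999, kept). NKD2, an inhibitor of Dishevelled, stood at 13.6, 10.8 and 8.92 FPKM and at 7.53, 5.49 and 5.98 FPKM (-0.79 ± 0.16, limma adjusted p = 0.0161; 0.0961 without siIRF2BP2 replicate 3). The receptor FZD4 gave -0.60 ± 0.15, the TCF factor TCF7 -0.47 ± 0.12 and the ligand WNT9A -0.81 ± 0.21, and these reached 0.151, 0.165 and 0.162 (limma adjusted p) with a library left out. The members that fell thus included antagonists and positive components. The count of falls was 1 without siNON replicate 2 or siIRF2BP2 replicate 3 and 10 without siNON replicate 3. Of 25 Notch pathway genes only the ligand JAG2 passed (-0.58 ± 0.15, limma adjusted p = 0.0402; 0.192 without siNON replicate 1).

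Matrix genes went in both directions. Of 36 tested matrix proteases and inhibitors 3 fell and 1 rose, against 3.08% and 2.07% of all genes. Beside MMP2, the inhibitor TIMP2, which also takes part in MMP2 activation, fell from 17.5, 17.1 and 13.9 FPKM to 8.37, 7.61 and 9.77 FPKM (-0.90 ± 0.12, limma adjusted p = 0.00180, kept). KIAA1731NL overlaps TIMP2 on the same strand. MMP14, the membrane protease that activates MMP2, went the other way, at 0.535 to 0.648 FPKM against 1.08 to 1.36 FPKM (0.91 ± 0.17, limma adjusted p = 0.0136; 0.0751 without siNON replicate 1). MMP15, a second membrane protease, gave -0.64 ± 0.12 (limma adjusted p = 0.0136; 0.0877 without siNON replicate 1). Of 32 collagens COL12A1 rose, and COL9A3 (-0.89 ± 0.20), COL6A2 (-0.76 ± 0.19) and COL2A1 (-0.49 ± 0.12) passed in the other direction. Those 3 collagens reached limma adjusted p of 0.135, 0.178 and 0.174 and lost the call without siNON replicate 1 or 2 and without siIRF2BP2 replicate 2 or 3, where no collagen passed as lower, and 9 did without siNON replicate 3. Of 40 other matrix glycoproteins VCAN, a large proteoglycan, was called higher (0.48 ± 0.11; 0.127 as limma adjusted p without siNON replicate 1) and the laminin chains LAMC3 (-0.75 ± 0.17) and LAMB3 (-0.51 ± 0.14) lower, none of them kept (LAMC3 at most 0.12, LAMB3 at most 0.191), and none of 18 integrins passed.

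Of 30 genes of endoplasmic reticulum chaperones and degradation 7 rose and none fell, against 2.07% and 3.08% of all genes, with a median of 0.14. The degradation arm of the unfolded protein response clears misfolded proteins from this compartment. DNAJB9, a co-chaperone that hands clients to it, rose from 4.91, 4.16 and 6.67 FPKM to 11.3, 12.2 and 10.2 FPKM (1.11 ± 0.15, limma adjusted p = 0.00199, kept). THAP5 overlaps DNAJB9 on the opposite strand. SEC24D, a coat protein of export vesicles, stood at 8.76, 8.94 and 8.06 FPKM and at 12.2, 12.2 and 13.4 FPKM (0.55 ± 0.10, limma adjusted p = 0.00999; 0.0742 without siIRF2BP2 replicate 3). EDEM1, SEL1L, DERL3 and HERPUD1, all of the degradation machinery, gave 0.41 ± 0.10, 0.44 ± 0.11, 0.45 ± 0.11 and 0.46 ± 0.11. EIF2AK3, the sensor kinase PERK, gave 0.48 ± 0.12. The highest limma adjusted p of these 5 with a library left out was 0.145 to 0.162.

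The abundant chaperones of that compartment lay near 0, with HSPA5 at -0.02 ± 0.08 and 45.3 to 51.6 FPKM with siIRF2BP2 against 46.8 to 49.7 FPKM with siNON. HSP90B1 gave 0.09 ± 0.09 and CALR -0.07 ± 0.09. Genes with dense reads may be capped in these libraries, and whether such a cap takes part in these values was not tested. The number of rises on this list was 1 without siIRF2BP2 replicate 3, 2 without siNON replicate 1, 3 without siNON replicate 2 or siIRF2BP2 replicate 2, 4 without siIRF2BP2 replicate 1 and 11 without siNON replicate 3. None of 19 heat shock genes passed.

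Of 47 genes of the ATF4 and amino acid stress response 5 rose and 2 fell, against 2.07% and 3.08% of all genes, with a median of 0.04. The count of rises was 1 without siIRF2BP2 replicate 3, 2 without siNON replicate 1 and 8 without siNON replicate 3. DDIT3, the stress factor CHOP, stood at 15.7, 19.5 and 13.4 FPKM and at 24.3, 24.5 and 25.7 FPKM (0.63 ± 0.12, limma adjusted p = 0.0134; 0.0852 without siNON replicate 1). MARS overlaps DDIT3 on the opposite strand. PPP1R15A, a phosphatase subunit that ends the stress block of translation, gave 0.52 ± 0.10 and the factor ATF3 0.43 ± 0.11 (limma adjusted p = 0.0134 and 0.0426; 0.0828 and 0.171 at most with a library left out). NUPR1, a small stress-induced chromatin protein, gave 0.87 ± 0.23 (limma adjusted p = 0.0445, at most 0.175 with a library left out). The remaining rise of this list was INHBE, given above, and INHBE alone of the 5 kept its call. The 2 that fell were amino acid transporters. SLC7A1, the carrier of cationic amino acids, fell from 30.0, 34.3 and 25.0 FPKM to 16.6, 15.9 and 19.5 FPKM (-0.77 ± 0.12, limma adjusted p = 0.00348, kept). SLC7A5, the large neutral one, changed by -0.70 ± 0.13 (limma adjusted p = 0.0141; 0.0844 without siNON replicate 1). ATF4 itself gave -0.09 ± 0.10 and the asparagine synthetase ASNS -0.10 ± 0.11.

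Among 28 tested genes that TNF and NF-kB induce, 3 were called higher and 0 lower, against 2.07% and 3.08% of all genes, with a median of 0.22. The count of rises was 8 without siNON replicate 3, 10 with array weights and 0 among genes with a mean FPKM of at least 1. CXCL8, the neutrophil chemokine interleukin-8, stood at 0.236, 0.282 and 0.241 FPKM with siNON and at 1.38, 1.10 and 1.25 FPKM with siIRF2BP2 (1.93 ± 0.18, limma adjusted p = 0.000191, kept). CXCL2, a related chemokine, stood at 0.186, 0.356 and 0.266 FPKM and at 1.08, 1.11 and 0.949 FPKM (1.66 ± 0.20, limma adjusted p = 0.000999, kept). They rest on means of 9.0 and 49.3 reads for CXCL8 and 6.7 and 29.3 reads for CXCL2. With under 10 reads in each siNON library, both entered the test only through the siIRF2BP2 libraries, where they are higher. PTGS2, the inducible cyclooxygenase, changed by 0.78 ± 0.21 (limma adjusted p = 0.0483; 0.178 without siNON replicate 2). NFKBIA, the inhibitor that NF-kB induces, missed the threshold at 0.32 ± 0.09 (limma adjusted p = 0.0520), with 15.2 to 16.1 FPKM against 18.4 to 20.8 FPKM. TNFAIP3, NFKB1 and BIRC3 gave 0.32 ± 0.15, 0.24 ± 0.12 and 0.20 ± 0.22. Of 39 interferon response genes IFI35 was called higher (0.59 ± 0.10, limma adjusted p = 0.00922; 0.0739 without siIRF2BP2 replicate 3) and HLA-F lower (-0.38 ± 0.09, limma adjusted p = 0.0362; 0.157 without siNON replicate 1), the latter with reads that near-identical HLA genes may share.

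Neuronal genes, which HEK293 cells are known to express, held 5 falls and 1 rise among 27 tested, against 3.08% and 2.07% of all genes, with a median of -0.17. NCS1, STMN3 and MAP2 are given above. The filament and tubulin genes PRPH, TUBB3 and NEFL gave -0.54 ± 0.13, -0.58 ± 0.14 and -0.38 ± 0.10 (limma adjusted p = 0.0303, 0.0370 and 0.0402). With 1 library left out these 3 reached 0.137, 0.181 and 0.168, and the count of falls ranged from 2 to 10. Among 59 axon guidance genes 4 were called higher and 3 lower. The receptor EPHA4 gave 0.58 ± 0.11 and EPHA1, at under 0.6 FPKM, -1.08 ± 0.21. ZYX and EPHA1-AS1 overlap EPHA1 on the opposite strand. The Slit receptors ROBO1 and ROBO2 gave 0.36 ± 0.09 and 0.57 ± 0.13, and the semaphorin receptors went apart, NRP1 at 0.41 ± 0.10 and NRP2 at -0.50 ± 0.13. The netrin receptor UNC5A gave -0.72 ± 0.18. None of these 7 calls was kept, and leaving out 1 library raised their limma adjusted p to between 0.0891 and 0.193. Among 44 kidney and mesoderm factors WT1 fell, CITED1, a cofactor of kidney progenitors, gave -0.59 ± 0.14 and EYA1, a developmental phosphatase, gave 0.46 ± 0.12, of which only the call of WT1 was kept (CITED1 at most 0.137, EYA1 at most 0.159, limma adjusted p).

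Of 22 cholesterol synthesis enzymes 2 fell and none rose, against 3.08% and 2.07% of all genes, with a median of -0.18, the lowest of the 36 lists. LSS, the lanosterol synthase, fell from 27.2, 26.7 and 24.8 FPKM to 17.9, 16.2 and 18.1 FPKM (-0.59 ± 0.09, limma adjusted p = 0.00292, kept). MVD gave -0.50 ± 0.12 (limma adjusted p = 0.0308; 0.162 without siNON replicate 1). Of 21 genes of sterol sensing and transport, SREBF2, the master factor of the pathway, gave -0.44 ± 0.10, its anchor INSIG1 -0.38 ± 0.08 and the sterol carrier STARD4 0.68 ± 0.15, with limma adjusted p up to 0.146, 0.0903 and 0.145 when a library was left out. None of 22 fatty acid synthesis genes passed. In the glycolysis and hypoxia list, EPAS1, the hypoxia factor HIF-2 alpha, fell from 6.00, 4.97 and 4.37 FPKM to 2.58, 2.30 and 2.62 FPKM (-0.99 ± 0.15, limma adjusted p = 0.00299, kept). NDRG1 gave -0.45 ± 0.11 and the glucose transporter SLC2A3 0.48 ± 0.11, and these 2 of the 37 genes lost the call when single libraries were left out (at most 0.182 and 0.137).

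The broad housekeeping lists and the others of this paragraph held few calls, beside 5.14% of all tested genes. In a short list, none or 1 call lies near that share. Of 78 cytosolic ribosomal protein genes 1 was called lower, RPS29 (-0.43 ± 0.09, limma adjusted p = 0.0161; 0.0814 without siNON replicate 1), yet all 78 values were under 0, between -0.43 and -0.04 with a median of -0.14. The median stayed under 0 in every alternative, between -0.23 and -0.07, and with array weights 50 of the 78 passed. Such genes have near-identical pseudogenes, and genes with dense reads may be capped in these libraries. Tags numbered 22.4, 18.8 and 22 M in the siNON and 24.8, 24.1 and 21.1 M in the siIRF2BP2 libraries. Whether depth and such a cap take part in these values was not tested. Of 75 oxidative phosphorylation subunits none passed and 63 lay under 0 (median -0.08, beside 0.02 over all genes). Of 50 DNA replication and mitosis genes 1 passed, RB1, the retinoblastoma repressor (-0.48 ± 0.12, limma adjusted p = 0.0430; 0.152 without siIRF2BP2 replicate 3), which LPAR6 overlaps on the opposite strand. None of the tested KLF factors, circadian clock genes and fatty acid synthesis genes passed, and 1 of 23 glucocorticoid receptor induced genes did, CDKN1C, a cell cycle inhibitor, at -0.85 ± 0.22 (limma adjusted p = 0.0472; 0.192 without siNON replicate 1). MYC, among 29 immediate early and ERK feedback genes, was called lower (-0.36 ± 0.10, limma adjusted p = 0.0499; 0.197 without siNON replicate 1) and lost that call in 11 of 15 alternatives. FOSB, of the same list, gave 0.74 ± 0.18 (limma adjusted p = 0.0361; 0.154 without siIRF2BP2 replicate 3).

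**Figure D4:**
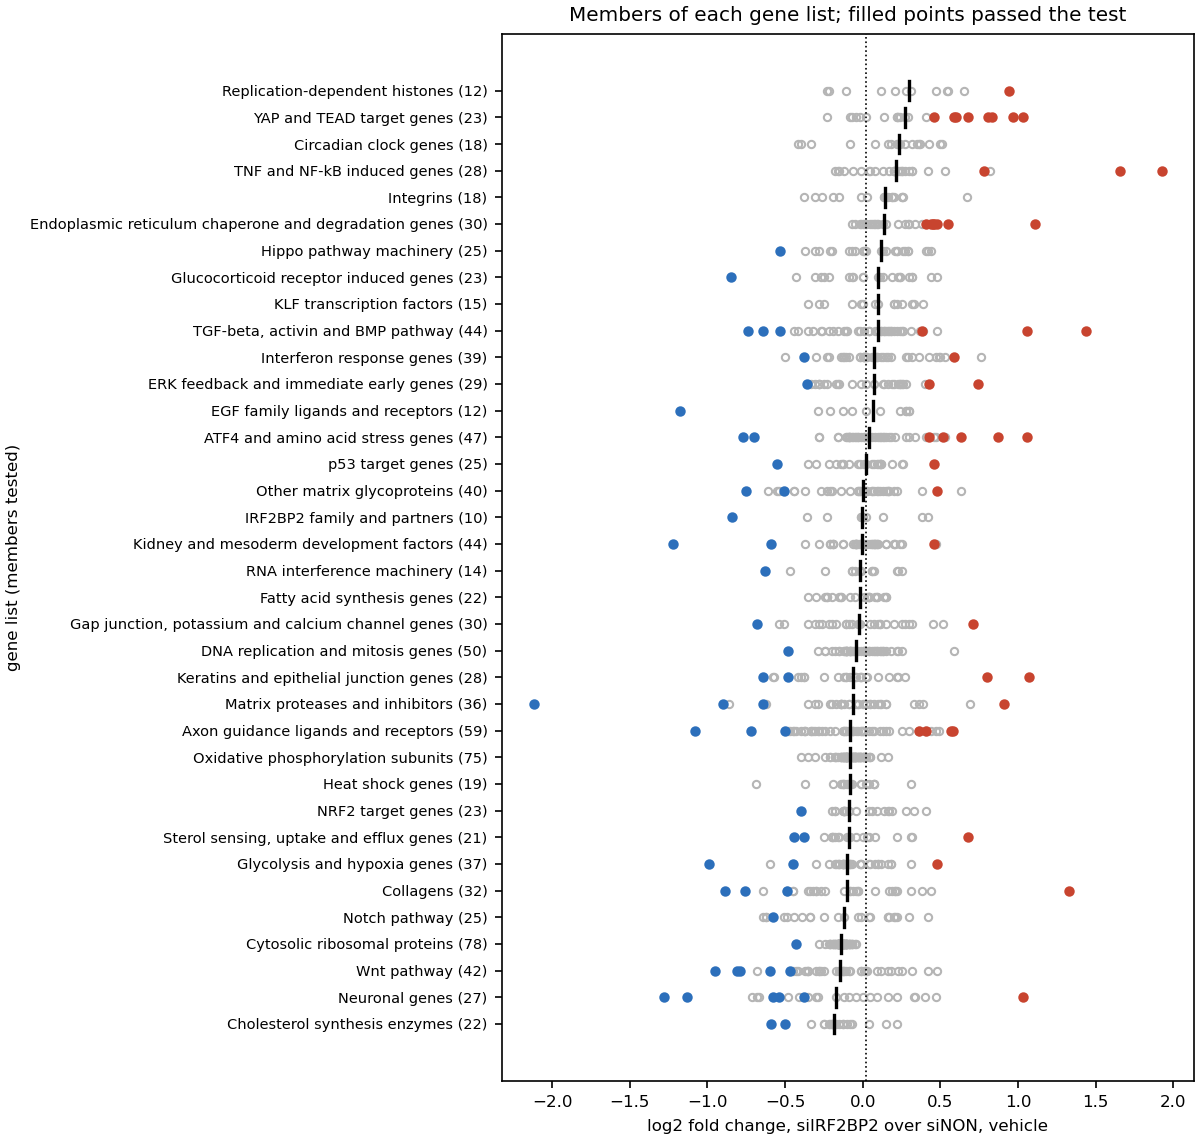
Each row is 1 of the 36 gene lists (y axis, number of tested members in brackets) and each point a member's log2 fold change of siIRF2BP2 over siNON under vehicle (x axis). Filled points passed the test, red higher and blue lower, bars mark the list medians and the dotted line is the median of all genes, 0.02. List medians run from -0.18 for cholesterol synthesis to 0.29 for the replication-dependent histones.

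The knockdown under dex was measured in 6 other libraries and shares no sample with the comparison under vehicle. There 7860 of 15184 genes (51.8%) passed in limma, 4282 higher (28.2%) and 3578 lower (23.6%). Of the 301 genes called higher under vehicle that could be tested, 274 (91.0%) were called higher under dex and 2 lower. Of 463 called lower under vehicle, 447 (96.5%) were called lower and none higher. The median changes were 0.63 and 0.60 for the higher genes under vehicle and dex, and -0.60 and -0.63 for the lower genes. MMP2 gave -2.46, NCS1 -1.46, WT1 -1.51, TGFA -1.27, CTGF 1.38, ANKRD1 1.24 and DNAJB9 1.32 under dex, all called.

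The difference of the 2 knockdown effects, fitted in all 12 libraries, passed limma's threshold in 2 of 15594 genes (0.0128%). An unadjusted limma p under 0.05 was found in 805 of the 15594. That is near the share of 0.05 which such a threshold passes when no gene differs, so the 805 are not read as differences. SLC2A3, a glucose transporter, stood at 6.73, 6.37 and 5.72 FPKM with siNON and at 8.59, 8.32 and 9.53 FPKM with siIRF2BP2 under vehicle. Under dex SLC2A3 stood at 33.8 to 35.5 FPKM with siNON and at 25.6 to 30.9 FPKM with siIRF2BP2. Its change was 0.48 ± 0.11 under vehicle and -0.31 ± 0.08 under dex, a difference of -0.79 ± 0.12 (limma adjusted p = 0.0358; 0.193 without siNON dex replicate 3). PDGFA, the A chain of platelet-derived growth factor, gave 0.35 ± 0.19 under vehicle (limma adjusted p = 0.278) and -0.95 ± 0.06 under dex, a difference of -1.30 ± 0.19 (limma adjusted p = 0.0358; 0.193 without siNON dex replicate 3). INHBA, at 1.44 under vehicle and 0.05 under dex, and S100P, a calcium-binding protein chosen here after its values were seen, at 1.29 and -0.32, gave differences of -1.39 ± 0.33 and -1.61 ± 0.30 that did not pass (limma adjusted p = 0.328 and 0.167).

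In A549 cells the deposited table pools the replicates, so only the authors' own values can be given, and their test is not stated. IRF2BP2 itself is given there as -0.31 (FDR 0.013) in the authors' deposited table. Of 15201 genes tested here, 34.9% had an FDR under 0.05 in the authors' deposited table, 16.4% higher and 18.5% lower. Of the 468 genes lower in HEK293-GR cells, 301 (64.3%) were lower in the authors' deposited table for A549 and 6 higher, and the median was -0.59. Of the 314 genes higher in HEK293-GR cells, 115 (36.6%) were higher and 32 lower in the authors' deposited table for A549, with a median of 0.24. The shares are set side by side without a test.

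MMP2 gave -2.25, TGFA -2.66, GPR176 -2.17, SFRP1 -2.03, SETD8 -1.33, NCS1 -1.13 and TIMP2 -1.07 in the authors' deposited table for A549, each past an FDR of 0.05 and of the same sign as in HEK293-GR cells. For DNAJB9 the authors' deposited table gave 0.96. Of the 8 risen YAP and TEAD target genes 6 had the opposite sign there, with CTGF at -0.79, AMOTL2 at -0.81, ANKRD1 at -0.73, CYR61 at -0.78, IGFBP3 at -0.85 and GADD45A at -0.54 in the authors' deposited table. Of the 23 tested genes of this list the authors' deposited table had 3 higher and 9 lower in A549 at an FDR under 0.05. The shares over all genes were 16.4% higher and 18.5% lower. The list median there was -0.19. CXCL8 at -2.55, PTGS2 at -2.69, FOSB at -2.38, ATF3 at -1.74 and PPP1R15A at -1.71 in the authors' deposited table for A549 also stood against rises in HEK293-GR cells. No FDR is given here for DNAJB9 or for the values of opposite sign, and the difference between the lines was not tested.

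**Figure D5:**
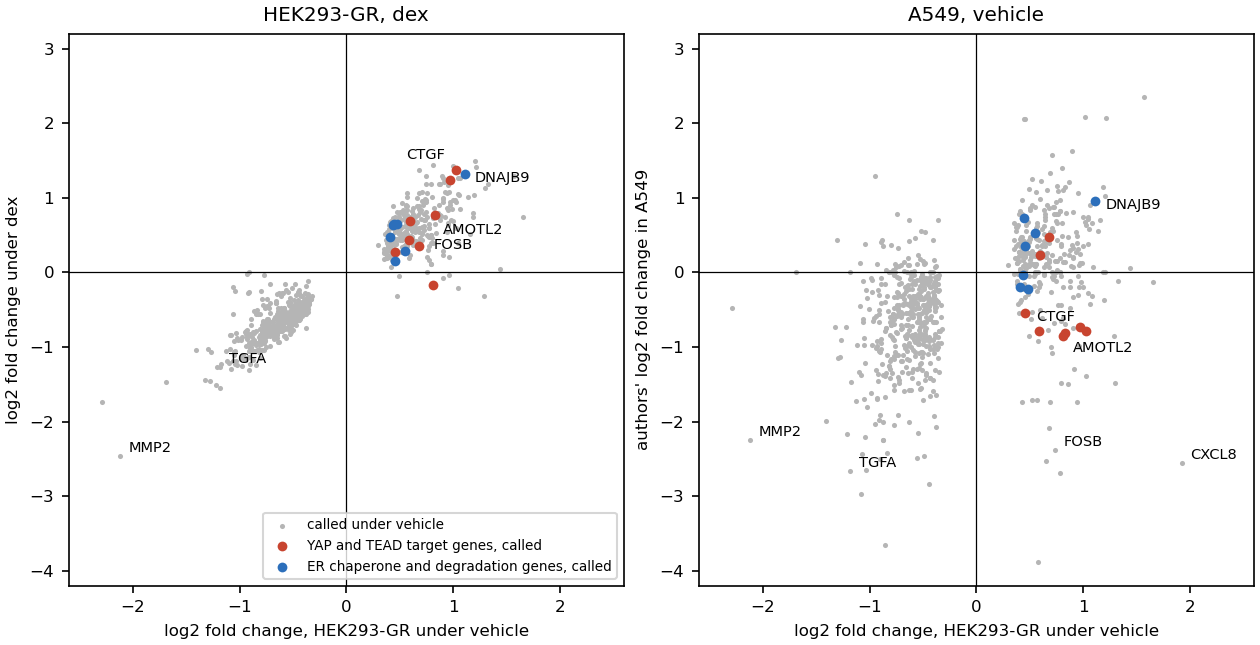
Both panels plot the genes called under vehicle in HEK293-GR cells, with their log2 fold change there on the x axis. The y axis is the log2 fold change under dex (left) or the authors' log2 fold change in A549 (right), and larger points are called YAP and TEAD target genes (red) and endoplasmic reticulum genes (blue). Under dex nearly all points keep their side of 0, while in A549 CTGF (-0.79), AMOTL2 (-0.81), FOSB (-2.38) and CXCL8 (-2.55) lie below it.

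IRF2BP2 ChIP in vehicle-treated HEK293-GR cells gave a deposited list of 1108 peaks, each 343 bases wide. The authors' score is 1 for every peak, so peaks could not be ranked, and the sources do not say how the 2 ChIP replicates were combined. A peak centre lay within 10 kb of the start of 14 of the 314 higher genes (4.46%), 6 of the 468 lower genes (1.28%) and 204 of all 15203 tested genes (1.34%). Within 1 kb the shares were 1.59%, 0.64% and 0.46%. Within 50 kb they were 7.64%, 4.27% and 5.04%. These shares rest on few genes and were not tested.

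The higher genes with a peak centre within 1 kb of the start were ATF3, AMOTL2, FOSB, PAMR1 and TBC1D9, and the lower ones IRF2BP2, NAGK and RRAS (all named because there are so few). The peak at IRF2BP2 was chr1:234744736-234745078 (hg19) and began 193 bases after the start of its own gene, which runs on the minus strand from 234745271 to 234740015. The peak at FOSB was chr19:45970832-45971174 with its edges at -421 and -79 bases from the start. RRAS, a Ras-related GTPase, changed by -0.92 ± 0.14 (limma adjusted p = 0.00315) and NAGK, a sugar kinase, by -0.73 ± 0.09 (limma adjusted p = 0.00136), both kept. MMP2, TGFA and CTGF had no peak within 50 kb.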

How the data were processed

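RNA values were deposited by the authors as FPKM, per the file headers, with 1 column per HEK293-GR library and the exon length of each gene. The submitters' processing notes name FastQC, Trimmomatic 0.33, HOMER, Bowtie2, TopHat2 and edgeR for RNA, and FastQC, Bowtie 0.12.9, HOMER 4.10.3 and bedtools for ChIP, on build hg19, with no role or order. FPKM times length gave whole reads (within 0.01 reads beyond rounding) for 100.00% of the genes checked, which gives the tags per library. No gene exceeded 2.83 to 3.11 reads per base in the 12 HEK293-GR libraries, so dense genes may be capped. The deposited log2 fold changes, p-value and FDR columns are the authors' own comparisons (siIRF2BP2 over siNON), and their test is not given in the sources used here. The deposited peak score is 1 throughout.

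limma 3.58.1 in R 4.3.3 (trend, log2 of FPKM plus 0.1) was fitted to the 6 vehicle libraries (4 residual degrees of freedom), keeping genes that reached 10 reads in 3 or more of them, two-sided, with Benjamini-Hochberg adjustment at 0.05. A fit over 12 libraries, which shares 1 spread with the dex groups, was an alternative. Dex was fitted in its own 6 libraries and the difference in all 12. Simulated data were used to check the script. In A549, 1 transcript per gene was kept, that with the most reads under vehicle.

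Groups came from the titles. Same-numbered siNON and siIRF2BP2 libraries did not deviate together, so no block was used. Named genes are IRF2BP2, the 12 largest rises and 12 largest falls with adjusted p under 0.05, at least 1 FPKM and 50 reads in the higher group and no overlap (non-coding and antisense names left out), and the 4 or fewer members of lowest p in each list. The other names were chosen after their values were seen. The gene lists, the members and the tests were chosen with earlier results of these data known. Promoters came from RefSeq (GRCh38.p14). Alternatives were another scaling, pseudocount, filter or weighting, a replicate block, and each library left out.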

Additional observations from a re-analysis of the deposited data

Results flagged for a closer look

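The effect of the knockdown on 2 genes differed between vehicle and dex by the test of the difference itself (limma over 12 libraries, n = 3 per group). SLC2A3 gave a difference, dex minus vehicle, of -0.79 ± 0.12, with all 3 siIRF2BP2 libraries above siNON under vehicle and below it under dex. PDGFA gave -1.30 ± 0.19, and its siNON level was 1.18 ± 0.187 FPKM (± SD) under vehicle and 14.7 ± 0.614 FPKM under dex. Both had a limma adjusted p of 0.0358, and both lost the call when any 1 dex library, siIRF2BP2 vehicle replicate 1 or siIRF2BP2 vehicle replicate 3 was left out (adjusted p 0.0508 to 0.193).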

How the results depend on the processing

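The change of IRF2BP2 kept its direction and its call in all 15 alternatives. The number of genes called under vehicle, 782, became 2414 with all 12 libraries in the fit, 3799 with array weights (siNON replicate 3 weighted 0.337, siIRF2BP2 replicate 1 4.57), 487 with a mean FPKM of at least 1, and 142 with no filter on low values, where 21001 genes were tested. It was 768 and 770 with pseudocounts of 1 and 0.01, 783 with median-of-ratios scaling and 793 with voom on the recovered reads. With single libraries left out it ran from 137 to 3528. The replicate block gave 905 calls. Same-numbered libraries had correlations of deviations of 0.29, -0.29 and -0.41, so the numbers do not pair them. Of the 88 named genes, 61 lost the call with no filter on low values, 56 without siIRF2BP2 replicate 3, 52 without siNON replicate 1, 47 without siNON replicate 2, 34 without siIRF2BP2 replicate 2, 15 without siIRF2BP2 replicate 1 and none without siNON replicate 3, and none changed sign. With a mean FPKM of at least 1, 76 of the named genes were tested and 15 lost the call. Higher genes numbered 313 and lower genes 530 in the authors' deposited table, and 631 of the 782 calls were among them with the same sign. Under dex the 7860 calls became 8061 with the replicate block and 7009 to 7823 with a library left out. The 2 genes whose effect differed between vehicle and dex became 22 with a pseudocount of 1, 0 with the replicate block, and 0 to 7 with a library left out. The share of lower genes with a peak near the start, 1.28% at 10 kb, was 0.64% at 1 kb and 4.27% at 50 kb. Depth limits genes such as INHBA and CXCL2, at under 10 reads per siNON library on average. Why the counts move was not tested beyond these fits.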

Other observations

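The genes that stayed called with each library left out include several that no list holds; these were chosen after their values were seen. Among the falls were SORL1, a sorting receptor (-1.02 ± 0.14, limma adjusted p = 0.00199), FSCN1, which bundles actin (-0.96 ± 0.14, limma adjusted p = 0.00199), AQP3, a water and glycerol channel (-1.04 ± 0.17, limma adjusted p = 0.00496), and MFN1, a mitofusin of the mitochondrial outer membrane (-0.89 ± 0.14, limma adjusted p = 0.00348). Among the rises were DDR2, a collagen receptor kinase (1.30 ± 0.19, limma adjusted p = 0.00292), HSPB8, a small heat shock protein (0.95 ± 0.15, limma adjusted p = 0.00348), and TNFRSF12A, the TWEAK receptor (0.81 ± 0.12, limma adjusted p = 0.00348). DDR2 stood at a mean of only 0.22 FPKM with siNON and 0.68 FPKM with siIRF2BP2. Unlike the other genes of this paragraph, DDR2 was not called in every alternative.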
